A study of Mus musculus with 12 samples.

Results

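The 40 genes described here encode the proteins that license, start and carry out DNA replication, together with enzymes that supply deoxynucleotides and factors that follow the replication fork. They were chosen by name and role, with earlier results of these data known, and are 40 of 19938 genes that carry a probe set of their own on the arrays. Each of the 40 had such a probe set, and 38 were bright enough to be tested; Orc1, the largest origin recognition subunit, and Gins1, a subunit of the GINS helicase cofactor, were too dim. The study measured total RNA of the mouse ascending aorta on 12 arrays, in 4 groups of 3. All mice had loxP-flanked alleles of Tgfbr2 (Tgfbr2f/f), which encodes a TGF-β receptor subunit, and Myh11-CreERT2, a tamoxifen-activated Cre recombinase driven by the promoter of smooth muscle myosin heavy chain, so the controls share both. The groups were Tgfbr2 knockouts on the heterozygous Fbn1 C1039G background (Fbn1C1039G/+), controls on that background, Tgfbr2 knockouts with wild-type Fbn1, and controls with wild-type Fbn1. Fbn1 encodes fibrillin-1, and the C1039G allele is a mouse model of Marfan syndrome. Knockouts received 1 mg of tamoxifen and controls received corn oil by intraperitoneal injection on 5 days from 4 weeks of age, and aortas were taken at 6 weeks. Recombined Tgfbr2 and tamoxifen itself therefore cannot be told apart in any comparison of knockouts with controls. The arrays are called by group and title number below, as in mutant knockout 1.

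Before S phase, the origin recognition complex, CDC6 and CDT1 load the MCM2-7 helicase onto origins, a step called licensing. Cyclin E with CDK2, MCM10, CDC45 and GINS then turn the loaded helicase on, primase and the polymerases copy the strands, RPA coats the exposed single strands, and the PCNA clamp, opened by replication factor C, tethers the polymerases while FEN1 and LIG1 join the lagging strand. Many of these genes are known targets of E2F transcription factors and are transcribed together as a cell leaves G1, whereas vascular smooth muscle of the healthy aorta divides rarely. RNA of a whole vessel wall sums all of its cells, so more cells in S phase and more RNA per cell cannot be told apart in these values.

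All levels are log2 of the deposited RMA intensity, a background-corrected and between-array normalised brightness summarised over a gene's probes. Levels of different genes are not compared. A difference is the knockout mean minus the control mean on this scale, or Fbn1 mutant minus wild-type, given with limma's standard error, and a gene is called when its limma p, adjusted by the Benjamini-Hochberg method over all 15158 genes tested, is under 0.05. The median intensity of an array lay between 301 and 334, no 2 arrays were identical, and correlations between arrays of a group lay between 0.995 and 0.997. Tgfbr2 itself did not separate the groups: the mean was 12.03 ± 0.05 in mutant knockouts and 11.99 ± 0.04 in mutant controls (SD, n = 3 each, exact two-sided permutation p = 0.3). With wild-type Fbn1 it was 11.87 ± 0.08 in knockouts and 11.95 ± 0.01 in controls (SD, n = 3 each, exact two-sided permutation p = 0.2, where 0.1 is the smallest p that 3 arrays against 3 allow). Whether its probes lie in the deleted exons is not given in the sources used here, so groups go by their labels. All 8 smooth muscle markers, among them Myh11, were above the brightness filter. Ucp1, a brown fat gene named after its values were seen, stood apart at 8.21 on mutant knockout 1 and 8.58 on mutant control 3, against 6.75 to 7.30 on the other 10 arrays. These were not the only arrays with raised tissue markers. The 5 brown fat markers tested, each centred on its mean over the 12 arrays, averaged 0.60 and 0.58 there. They also averaged 0.50 on mutant knockout 3 and 0.40 on wild-type knockout 3. Cardiac muscle markers were highest on mutant knockout 2, at 0.78. The counts of calls are also given without both arrays high in Ucp1, with the genes whose calls were then lost.

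With the Fbn1 mutation, 15 of the 38 tested replication genes were higher in Tgfbr2 knockouts than in controls and none was lower, where 7.67% of all genes tested were called higher and 5.68% lower (13.3% in either direction). With wild-type Fbn1, 25 of the 38 were higher and none was lower, where 9.08% of all genes tested were called higher and 9.51% lower (18.6% in either direction). The median difference of the 38 genes was 0.19 in mutant aortas and 0.34 in wild-type aortas, beside 0.03 and -0.01 for all genes tested. The differences were small in size: none of the 38 was called with at least a 1.5-fold difference in mutant aortas, and 5 were in wild-type aortas, Ccne2, Pole, Chaf1b, Pole2 and Uhrf1. Of the genes, 14 were called higher in both Fbn1 genotypes (Cdc45, Cdc6, Cdt1, Chaf1b, Gins2, Mcm10, Mcm2, Mcm3, Mcm5, Pole, Pole2, Rfc4, Tyms and Uhrf1), where 3.03% of all genes tested were. Mcm4 was called only in mutant aortas and 11 genes only in wild-type aortas, although no gene's difference between the genotypes passed its own test.

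In mutant aortas, the 3 knockout arrays lay above all 3 control arrays for 23 of the 38 genes, where this held for 21.8% of all genes tested, and below them for Mcm6 alone, where this held for 13.9%. In wild-type aortas they lay above for 28 genes, where this held for 16.2% of all genes tested, and below for none, where this held for 19.4%. When any 1 of the 12 arrays was omitted, the mutant count lay between 9 and 16, where 5.96% to 14.3% of all genes tested were called. The mutant count was 9 when mutant control 2 was omitted and 9 when mutant knockout 2 was, where 5.96% and 7.01% of all genes tested were called. It was 6 when mutant knockout 1 and mutant control 3 were omitted together, where 7.24% were. In the last case Cdc45, Cdc6, Mcm5, Pole, Pole2 and Uhrf1 stayed called and Cdt1, Chaf1b, Gins2, Mcm10, Mcm2, Mcm3, Mcm4, Rfc4 and Tyms did not, with limma adjusted p between 0.0554 for Mcm2 and 0.171 for Gins2. In wild-type aortas that omission ended the call of Chaf1a alone (adjusted p = 0.0504). The wild-type count lay between 20 and 26 when any 1 of the 12 arrays was omitted, where 12.2% to 19.7% of all genes tested were called.

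**Figure D1:**
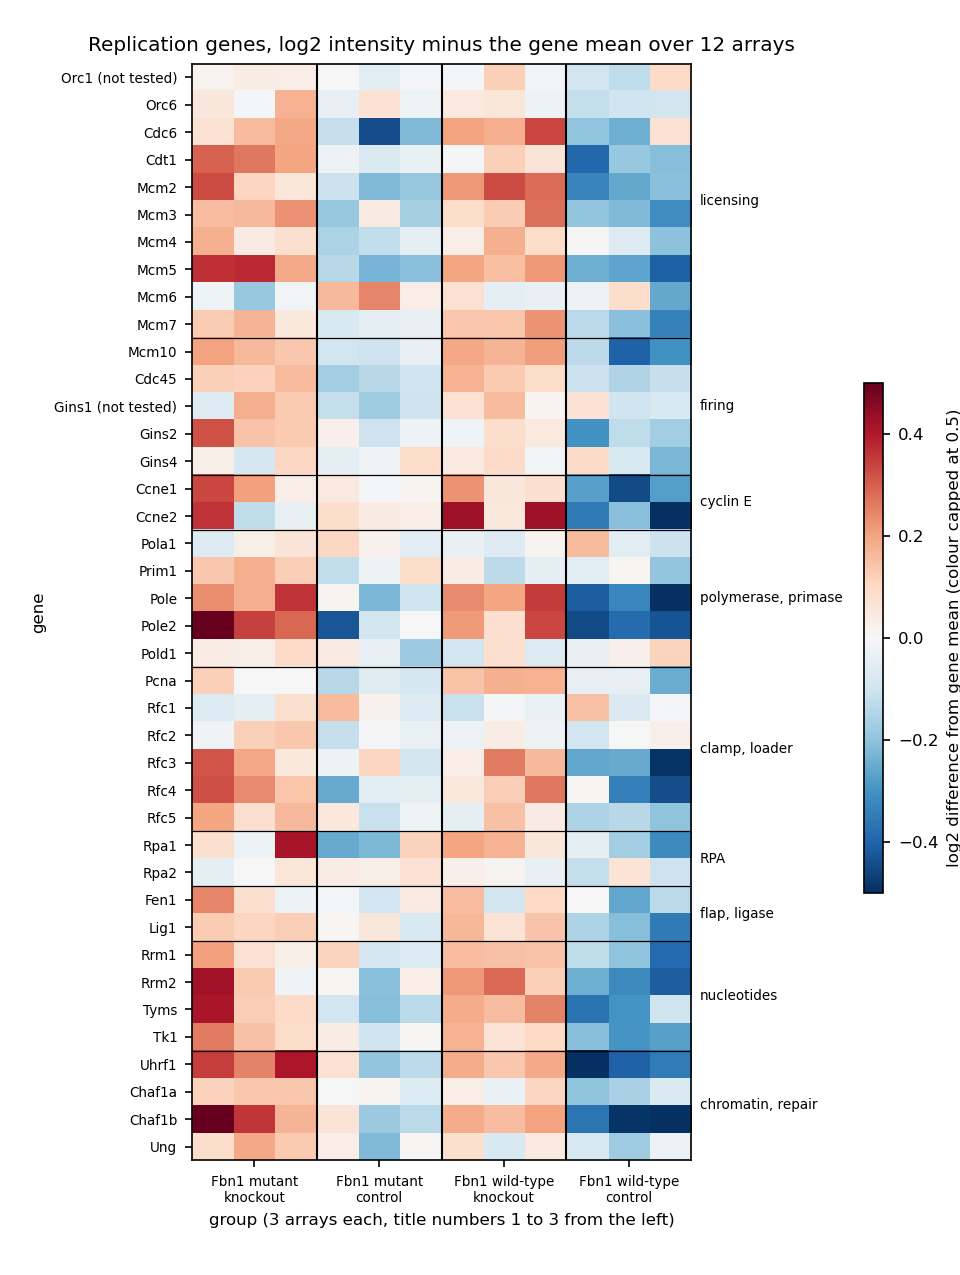
Colour shows the log2 intensity of each of the 40 replication genes (down, by role) on each of the 12 arrays (across, in 4 groups of 3) minus the gene's mean over the 12 arrays, with the colour capped at 0.5. Most genes are redder on the knockout arrays of both Fbn1 genotypes and bluest on the Fbn1 wild-type controls, while Mcm6, Pola1, Pold1 and Rfc1 are not.

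Among the licensing genes, 6 of 9 tested rose in mutant knockouts and 6 of 9 in wild-type knockouts. Mcm5, a subunit of the MCM2-7 helicase, had the smallest adjusted p of all 38 genes in mutant aortas. Its level was 9.92, 9.92 and 9.74 on mutant knockouts 1 to 3, against 9.41, 9.32 and 9.34 on mutant controls 1 to 3. On the wild-type arrays it was 9.75, 9.70 and 9.76 in knockouts, against 9.31, 9.28 and 9.14 in controls. The knockout and control arrays did not overlap in either genotype, and the difference was 0.50 ± 0.06 in mutant (limma adjusted p = 0.000393) and 0.49 ± 0.06 in wild-type aortas (adjusted p = 0.00021), or 1.42-fold and 1.41-fold. Mcm2, another subunit of the ring, read 9.57, 9.35 and 9.30 in mutant knockouts, against 9.13, 9.02 and 9.05 in mutant controls. In wild-type aortas it read 9.46, 9.57 and 9.52 in knockouts, against 8.91, 8.99 and 9.03 in controls. Again no arrays overlapped, with differences of 0.34 ± 0.07 (limma adjusted p = 0.00859) and 0.54 ± 0.07 (adjusted p = 0.000211). Without mutant knockout 1 and mutant control 3 the mutant difference of Mcm2 was 0.25 and not called (limma adjusted p = 0.0554).

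Mcm3 gave 8.56, 8.57 and 8.64 in mutant knockouts, against 8.22, 8.46 and 8.25 in mutant controls, and 8.50, 8.54 and 8.69 in wild-type knockouts, against 8.21, 8.19 and 8.10 in wild-type controls. Its difference was 0.28 ± 0.07 in mutant and 0.41 ± 0.07 in wild-type aortas, with mutant control 2 nearest to the knockouts. Mcm4 gave 9.68, 9.54 and 9.58 in mutant knockouts, against 9.34, 9.38 and 9.45 in mutant controls, and 9.53, 9.68 and 9.59 in wild-type knockouts, against 9.51, 9.44 and 9.30 in wild-type controls. Its differences of 0.21 ± 0.06 and 0.19 ± 0.06 were of like size, on either side of the threshold (limma adjusted p = 0.0494 in mutant and 0.0609 in wild-type aortas). Mcm7 differed by 0.17 ± 0.06 in mutant aortas, where it was not called (limma adjusted p = 0.0694), and by 0.39 ± 0.06 in wild-type aortas, where it rose (adjusted p = 0.000548).

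Mcm6 did not follow the other 5 subunits of the ring. It read 9.97, 9.80 and 9.98 in mutant knockouts, against 10.15, 10.23 and 10.02 in mutant controls, and 10.07, 9.94 and 9.95 in wild-type knockouts, against 9.96, 10.08 and 9.73 in wild-type controls. The mutant knockouts lay below the mutant controls and the wild-type groups overlapped, with differences of -0.22 ± 0.09 (limma adjusted p = 0.104) and 0.06 ± 0.09 (adjusted p = 0.667), neither of them called. With array weights Mcm6 was called lower in mutant knockouts, where 24.4% of all genes tested were called in either direction. Over the 12 arrays its correlation with the mean of the other tested replication genes was -0.05. That correlation is a description over arrays that share 4 group means.

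Of the 3 loader genes tested, Cdc6 and Cdt1 rose in both genotypes and Orc6 was called in neither. Cdc6, an ATPase that joins the origin recognition complex, read 7.62, 7.70 and 7.74 in mutant knockouts, against 7.43, 7.10 and 7.33 in mutant controls, and 7.75, 7.73 and 7.88 in wild-type knockouts, against 7.35, 7.30 and 7.62 in wild-type controls. No arrays overlapped, although wild-type control 3 lay far above the other wild-type controls, and the difference was 0.40 ± 0.09 in mutant (limma adjusted p = 0.0169) and 0.36 ± 0.09 in wild-type aortas (adjusted p = 0.0183). Cdt1, which brings the helicase to the origin, read 9.05, 9.02 and 8.95 in mutant knockouts, against 8.73, 8.68 and 8.71 in mutant controls, and 8.74, 8.87 and 8.82 in wild-type knockouts, against 8.36, 8.56 and 8.54 in wild-type controls. Its 4 groups were fully separated, with mutant knockouts highest, then wild-type knockouts, mutant controls and wild-type controls, and its differences were 0.30 ± 0.06 and 0.32 ± 0.06. Without mutant knockout 1 and mutant control 3 the mutant difference of Cdt1 was 0.28 and not called (limma adjusted p = 0.0586). Orc6, a small origin recognition subunit, differed by 0.07 ± 0.06 and 0.13 ± 0.06 (limma adjusted p = 0.391 and 0.118). Orc1, too dim to be tested, lay at 6.43 ± 0.01 in mutant knockouts and 6.38 ± 0.03 in mutant controls, and at 6.43 ± 0.07 in wild-type knockouts and 6.36 ± 0.12 in wild-type controls (SD, n = 3 each). Omitting 1 array ended the mutant call of Mcm4 for every array but wild-type controls 1 and 3, of Mcm3 for mutant knockout 2 or 3 or mutant control 1 or 3 and of Cdc6 for mutant knockout 2 or mutant control 2 (limma adjusted p of up to 0.15), and the wild-type call of Cdc6 for wild-type control 1, wild-type control 2 or wild-type knockout 3 (adjusted p of up to 0.0782).

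**Figure D2:**
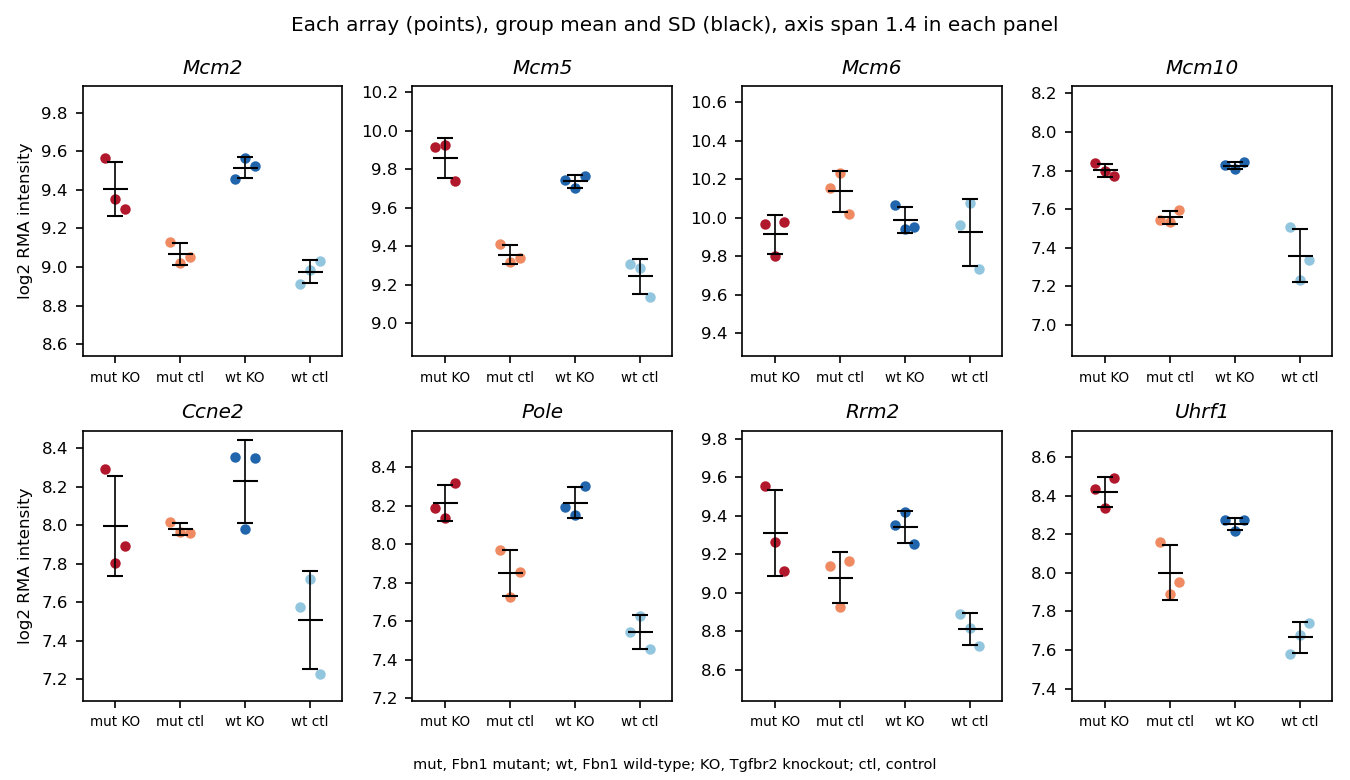
Points give the log2 RMA intensity of 8 replication genes on each array, with the group mean and SD in black; each panel spans 1.4 log2 units and the groups run from mutant knockout, mutant control and wild-type knockout to wild-type control. Mcm2, Mcm5, Mcm10, Pole and Uhrf1 have no overlap of knockouts with controls in either genotype, Rrm2 and Ccne2 overlap in mutant aortas, and Mcm6 is lower in mutant knockouts than in mutant controls.

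Stretches upstream of 4 of these genes are shown because their E2F letters can be set beside how the genes moved: Mcm5 and Cdc6 rose in both genotypes, whereas Mcm6 and Pola1, the catalytic subunit of polymerase alpha, were called in neither. Each is the 250 bases before the RefSeq start on GRCm38.p6, written 5′ to 3′ on the gene's strand, and lies at chr8:75109259-75109508 on the plus strand for Mcm5, chr11:98907901-98908150 on the plus strand for Cdc6, chr1:128359706-128359955 on the minus strand for Mcm6 and chrX:93632156-93632405 on the minus strand for Pola1. Capitals mark matches, on either strand, to the E2F 8-letter words TTTCCCGC, TTTCGCGC, TTTGCCGC and TTTGGCGC and to CCAAT.
Mcm5: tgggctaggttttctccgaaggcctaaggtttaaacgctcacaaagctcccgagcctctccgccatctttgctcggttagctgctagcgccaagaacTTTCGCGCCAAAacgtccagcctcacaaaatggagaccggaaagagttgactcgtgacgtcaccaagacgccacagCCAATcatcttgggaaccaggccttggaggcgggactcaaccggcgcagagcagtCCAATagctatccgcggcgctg
Cdc6: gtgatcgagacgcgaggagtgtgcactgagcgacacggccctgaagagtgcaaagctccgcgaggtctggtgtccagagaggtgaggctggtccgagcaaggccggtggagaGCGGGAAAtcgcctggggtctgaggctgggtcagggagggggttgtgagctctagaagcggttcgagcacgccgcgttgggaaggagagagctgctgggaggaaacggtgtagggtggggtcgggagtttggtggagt
Mcm6: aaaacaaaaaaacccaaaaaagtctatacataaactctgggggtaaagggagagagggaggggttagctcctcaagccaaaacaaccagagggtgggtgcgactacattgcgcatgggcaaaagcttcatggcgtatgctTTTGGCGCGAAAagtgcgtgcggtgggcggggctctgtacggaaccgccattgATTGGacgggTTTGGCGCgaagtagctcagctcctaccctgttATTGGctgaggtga
Pola1: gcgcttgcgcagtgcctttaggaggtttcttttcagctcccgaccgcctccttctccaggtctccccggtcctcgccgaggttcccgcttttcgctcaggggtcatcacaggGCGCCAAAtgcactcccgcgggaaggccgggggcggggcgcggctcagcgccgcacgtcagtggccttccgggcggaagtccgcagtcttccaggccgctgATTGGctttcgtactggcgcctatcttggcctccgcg
Mcm5 holds 2 overlapping E2F words, first base at -153 and -149 from the start, and CCAAT at -77 and -22, while Cdc6 holds 1 E2F word at -138 and no CCAAT. Mcm6 holds 3 E2F words, at -110, -106 and -47, of which the first pair overlap, and CCAAT at -57 and -14. Pola1 holds 1 E2F word at -138 and CCAAT at -37. E2F words thus stood before genes that rose and before genes that were not called.

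RefSeq promoter windows of 250 bases before to 50 after the start were found for 33 of the 40 genes, and a gene was counted once where it has several starts. An E2F word was found in 13 of the 33 (39.4%), beside 2.6% of 27025 mouse genes with such a window and 4.14% of the 11957 of them tested on the arrays. Related lists, described below, had shares of 28.1% (32 other replication genes), 33.3% (24 G1/S control genes) and 8.33% (24 mitosis genes). E2F words were thus not particular to the 40 genes. Among the replication genes called higher in wild-type knockouts, 9 of 22 held one (40.9%), and among those tested and not called, 3 of 10 did (30.0%). CCAAT was found in 60.6% of the 33 and 41.1% of all genes, and in 53.1%, 58.3% and 75.0% of those related lists. The words TTTGAA and TTCGAA, the core of the element known from promoters of mitotic genes, were in 15.2% of the 33 replication genes, 70.8% of the 24 mitosis genes with a window and 21.7% of all genes. The replication promoters were richer in G and C, with a median of 59.8% beside 52.7% for all windows, and the part of that in these shares was not tested. A match is only a run of letters and no binding was measured here.

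Among the genes that fire the loaded helicase, 3 of 4 tested rose in knockouts of both genotypes, and the cyclin E genes both rose in wild-type aortas and were not called in mutant aortas. Mcm10, a scaffold of helicase activation, read 7.84, 7.80 and 7.77 in mutant knockouts, against 7.55, 7.53 and 7.60 in mutant controls, and 7.83, 7.81 and 7.84 in wild-type knockouts, against 7.50, 7.23 and 7.33 in wild-type controls. The knockout arrays of both genotypes lay at nearly one level while the wild-type controls lay below the mutant controls, and the difference was 0.24 ± 0.06 in mutant (limma adjusted p = 0.0236) and 0.47 ± 0.06 in wild-type aortas (adjusted p = 0.000259). Cdc45, a core part of the active helicase, read 8.55, 8.55 and 8.59 in mutant knockouts, against 8.26, 8.29 and 8.33 in mutant controls, and 8.60, 8.56 and 8.52 in wild-type knockouts, against 8.32, 8.28 and 8.31 in wild-type controls. Its standard error of 0.04 was the smallest of the 38 genes, and the differences of 0.27 ± 0.04 and 0.26 ± 0.04 differed from each other by less than their errors.

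Gins2, a GINS subunit, read 9.27, 9.09 and 9.08 in mutant knockouts, against 8.98, 8.85 and 8.93 in mutant controls, and 8.93, 9.04 and 9.00 in wild-type knockouts, against 8.65, 8.83 and 8.78 in wild-type controls. Knockouts lay above controls in both genotypes, with mutant knockout 1 the highest array, and differed by 0.23 ± 0.07 and 0.24 ± 0.07 (limma adjusted p = 0.0372 and 0.0236). Omission of mutant knockout 1 or 2 or any mutant control ended the mutant call of Gins2 (limma adjusted p rising to 0.137), and that of wild-type knockout 2 or 3 or wild-type control 1 ended its wild-type call (rising to 0.0885). That of Mcm10 in mutant aortas ended when mutant control 1 or 2 or mutant knockout 1 or 2 was omitted (adjusted p rising to 0.082). Gins4, another GINS subunit, differed by 0.01 ± 0.08 and 0.12 ± 0.08 and was not called. The dim Gins1 lay at 6.69 ± 0.13 in mutant knockouts and 6.48 ± 0.04 in mutant controls, and at 6.70 ± 0.07 in wild-type knockouts and 6.58 ± 0.09 in wild-type controls (SD, n = 3 each).

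Ccne2, which encodes cyclin E2, had the largest difference of the 38 genes in wild-type aortas and nearly none in mutant aortas. It read 8.29, 7.80 and 7.89 in mutant knockouts, against 8.01, 7.97 and 7.96 in mutant controls, and 8.35, 7.98 and 8.35 in wild-type knockouts, against 7.57, 7.72 and 7.23 in wild-type controls. Mutant knockout 1 lay above and the other mutant knockouts lay below the mutant controls, so the difference of 0.01 ± 0.14 averages arrays that went both ways (limma adjusted p = 0.957). In wild-type aortas no arrays overlapped and the difference was 0.72 ± 0.14 (adjusted p = 0.00409), 1.65-fold. Ccne1, which encodes cyclin E1, read 9.29, 9.16 and 8.99 in mutant knockouts, against 9.01, 8.96 and 8.97 in mutant controls, and 9.18, 9.02 and 9.04 in wild-type knockouts, against 8.69, 8.51 and 8.68 in wild-type controls. Its difference was 0.17 ± 0.08 in mutant aortas, with 1 control above the lowest knockout (limma adjusted p = 0.151), and 0.45 ± 0.08 in wild-type aortas (adjusted p = 0.00158).

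Of the polymerase and primase genes, both tested subunits of polymerase epsilon, the leading-strand enzyme, rose in both genotypes and the other 3 genes were called in neither. Pole, its catalytic subunit, read 8.19, 8.14 and 8.32 in mutant knockouts, against 7.97, 7.73 and 7.85 in mutant controls, and 8.19, 8.15 and 8.30 in wild-type knockouts, against 7.54, 7.63 and 7.46 in wild-type controls. No arrays overlapped, and the difference of 0.67 ± 0.07 in wild-type aortas had the smallest adjusted p of the 38 genes (7.56e-05 by limma), beside 0.36 ± 0.07 in mutant aortas (adjusted p = 0.00858). Pole2, its accessory subunit, read 8.80, 8.62 and 8.57 in mutant knockouts, against 7.85, 8.19 and 8.28 in mutant controls, and 8.49, 8.36 and 8.61 in wild-type knockouts, against 7.83, 7.89 and 7.85 in wild-type controls. Mutant control 1 lay well below the other mutant controls, and the differences were 0.56 ± 0.10 (limma adjusted p = 0.00458), the largest of the 38 in mutant aortas, and 0.63 ± 0.10 (adjusted p = 0.00101). Pola1 differed by -0.01 ± 0.07 in mutant and -0.03 ± 0.07 in wild-type aortas, Prim1, the primase catalytic subunit, by 0.17 ± 0.07 and 0.04 ± 0.07, and Pold1, the catalytic subunit of the lagging-strand polymerase delta, by 0.11 ± 0.07 and -0.06 ± 0.07. The 95% intervals of Pola1 (-0.16 to 0.14 in mutant and -0.18 to 0.13 in wild-type aortas) exclude differences of the size measured for Pole2 in either genotype.

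The clamp and its loader did not move as 1 unit: of 6 genes, 1 rose in mutant and 4 in wild-type knockouts. Pcna, the sliding clamp, read 11.88, 11.76 and 11.76 in mutant knockouts, against 11.62, 11.70 and 11.67 in mutant controls, and 11.90, 11.94 and 11.93 in wild-type knockouts, against 11.72, 11.72 and 11.51 in wild-type controls. No arrays overlapped in either genotype, but the difference of 0.14 ± 0.06 in mutant aortas was not called (limma adjusted p = 0.146) and that of 0.27 ± 0.06 in wild-type aortas was (adjusted p = 0.00796). A second Pcna probe set gave nearly the same differences of means, 0.14 and 0.28. Rfc3, a small subunit of the clamp loader, read 8.74, 8.62 and 8.48 in mutant knockouts, against 8.41, 8.54 and 8.34 in mutant controls, and 8.46, 8.69 and 8.59 in wild-type knockouts, against 8.17, 8.18 and 7.94 in wild-type controls. The mutant groups overlapped and the wild-type groups did not, with differences of 0.19 ± 0.09 (limma adjusted p = 0.158) and 0.48 ± 0.09 (adjusted p = 0.00232).

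Rfc4 read 9.59, 9.50 and 9.40 in mutant knockouts, against 9.01, 9.21 and 9.22 in mutant controls, and 9.32, 9.39 and 9.53 in wild-type knockouts, against 9.27, 8.92 and 8.82 in wild-type controls. It was called in both genotypes (0.35 ± 0.10, limma adjusted p = 0.0448, and 0.40 ± 0.10, adjusted p = 0.0175), yet omission of any array but wild-type knockout 3 and wild-type controls 1 and 3 ended the mutant call, and that of wild-type knockout 3 or wild-type control 2 or 3 ended the wild-type call (adjusted p rising to 0.14 and 0.0759). Rfc5 differed by 0.17 ± 0.06 in mutant aortas, not called, and 0.21 ± 0.06 in wild-type aortas, where it rose and where omission of wild-type knockout 2 or 3 or any wild-type control ended the call (limma adjusted p of up to 0.0976). Rfc2 differed by 0.13 ± 0.06 and 0.02 ± 0.06, and Rfc1, the large subunit of the loader, by -0.05 ± 0.07 and -0.07 ± 0.07; neither was called. Rfc1 was the gene least like the rest over the 12 arrays, with a correlation of -0.28 with the mean of the others.

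Neither tested subunit of RPA, the single-strand binding complex, was called. Rpa1, its large subunit, read 10.52, 10.42 and 10.86 in mutant knockouts, against 10.19, 10.22 and 10.56 in mutant controls, and 10.64, 10.62 and 10.50 in wild-type knockouts, against 10.40, 10.27 and 10.12 in wild-type controls. Mutant control 3 and mutant knockout 3 were the highest arrays of their groups, and the differences of 0.28 ± 0.12 and 0.32 ± 0.12 came with a wide spread (limma adjusted p = 0.134 and 0.0786). Rpa2 read 9.25, 9.30 and 9.36 in mutant knockouts, against 9.33, 9.32 and 9.37 in mutant controls, and 9.32, 9.31 and 9.26 in wild-type knockouts, against 9.18, 9.37 and 9.19 in wild-type controls. All groups overlapped and the differences were -0.04 ± 0.06 and 0.05 ± 0.06. Of the lagging-strand genes, Lig1, the ligase that joins Okazaki fragments, read 9.16, 9.14 and 9.16 in mutant knockouts, against 9.04, 9.09 and 8.96 in mutant controls, and 9.20, 9.10 and 9.17 in wild-type knockouts, against 8.88, 8.82 and 8.68 in wild-type controls. The wild-type controls lay below all other arrays, and Lig1 rose in wild-type knockouts (0.37 ± 0.06, limma adjusted p = 0.000955) while the mutant difference of 0.12 ± 0.06 was not called (adjusted p = 0.162). Fen1, the flap nuclease, read 8.12, 7.96 and 7.85 in mutant knockouts, against 7.87, 7.78 and 7.92 in mutant controls, and 8.03, 7.78 and 7.97 in wild-type knockouts, against 7.87, 7.62 and 7.74 in wild-type controls. Its groups overlapped in both genotypes, with differences of 0.12 ± 0.09 and 0.19 ± 0.09, not called.

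All 4 genes of deoxynucleotide supply rose in wild-type knockouts and 1, Tyms, in mutant knockouts. Tyms, the thymidylate synthase, read 8.85, 8.56 and 8.54 in mutant knockouts, against 8.35, 8.23 and 8.31 in mutant controls, and 8.63, 8.60 and 8.69 in wild-type knockouts, against 8.07, 8.14 and 8.34 in wild-type controls. No arrays overlapped and the differences were 0.36 ± 0.09 (limma adjusted p = 0.0191, up to 0.0746 when mutant knockout 1 or mutant control 2 was omitted) and 0.45 ± 0.09 (adjusted p = 0.00309). Tk1, the thymidine kinase of S phase, read 9.25, 9.14 and 9.08 in mutant knockouts, against 9.03, 8.89 and 9.00 in mutant controls, and 9.16, 9.06 and 9.09 in wild-type knockouts, against 8.78, 8.69 and 8.72 in wild-type controls. The knockouts lay above the controls in both genotypes, with differences of 0.19 ± 0.06 (limma adjusted p = 0.0514, just outside the threshold) and 0.37 ± 0.06 (adjusted p = 0.000818). Its second probe set gave differences of means of 0.25 and 0.32. Rrm2, the regulated subunit of ribonucleotide reductase, read 9.55, 9.27 and 9.12 in mutant knockouts, against 9.14, 8.93 and 9.17 in mutant controls, and 9.35, 9.42 and 9.25 in wild-type knockouts, against 8.89, 8.82 and 8.72 in wild-type controls. Mutant knockout 1 stood above all other arrays, and the differences were 0.23 ± 0.10 (limma adjusted p = 0.134) and 0.53 ± 0.10 (adjusted p = 0.00301). Rrm1, the large subunit, differed by 0.12 ± 0.07 in mutant aortas, not called, and 0.39 ± 0.07 in wild-type aortas, where it rose (limma adjusted p = 0.00344).

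Of the genes that act behind the fork, Uhrf1 and Chaf1b rose in both genotypes. Uhrf1, which carries DNA methylation over to the new strand, read 8.43, 8.34 and 8.49 in mutant knockouts, against 8.16, 7.89 and 7.95 in mutant controls, and 8.27, 8.22 and 8.27 in wild-type knockouts, against 7.58, 7.68 and 7.74 in wild-type controls. The groups were fully separated, mutant knockouts above wild-type knockouts above mutant controls above wild-type controls, and the knockout differences were 0.42 ± 0.07 (limma adjusted p = 0.00323) and 0.59 ± 0.07 (adjusted p = 0.000159). Chaf1b, a subunit of the histone chaperone CAF-1, read 9.45, 9.23 and 9.04 in mutant knockouts, against 8.94, 8.68 and 8.73 in mutant controls, and 9.05, 9.02 and 9.07 in wild-type knockouts, against 8.50, 8.38 and 8.34 in wild-type controls. Mutant knockout 1 was its highest array, and the differences were 0.45 ± 0.09 (limma adjusted p = 0.00904) and 0.64 ± 0.09 (adjusted p = 0.000506). Without that array and mutant control 3 the mutant difference of Chaf1b was 0.32 and not called (limma adjusted p = 0.0622). Chaf1a, the large CAF-1 subunit, differed by 0.15 ± 0.05 in mutant aortas, not called, and by 0.18 ± 0.05 in wild-type aortas, where it rose but lost its call on omission of wild-type knockout 1 or 3 or wild-type control 1 or 2 (limma adjusted p of up to 0.126). Ung, the uracil-DNA glycosylase, differed by 0.20 ± 0.07 and 0.11 ± 0.07 and was not called.

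**Figure D3:**
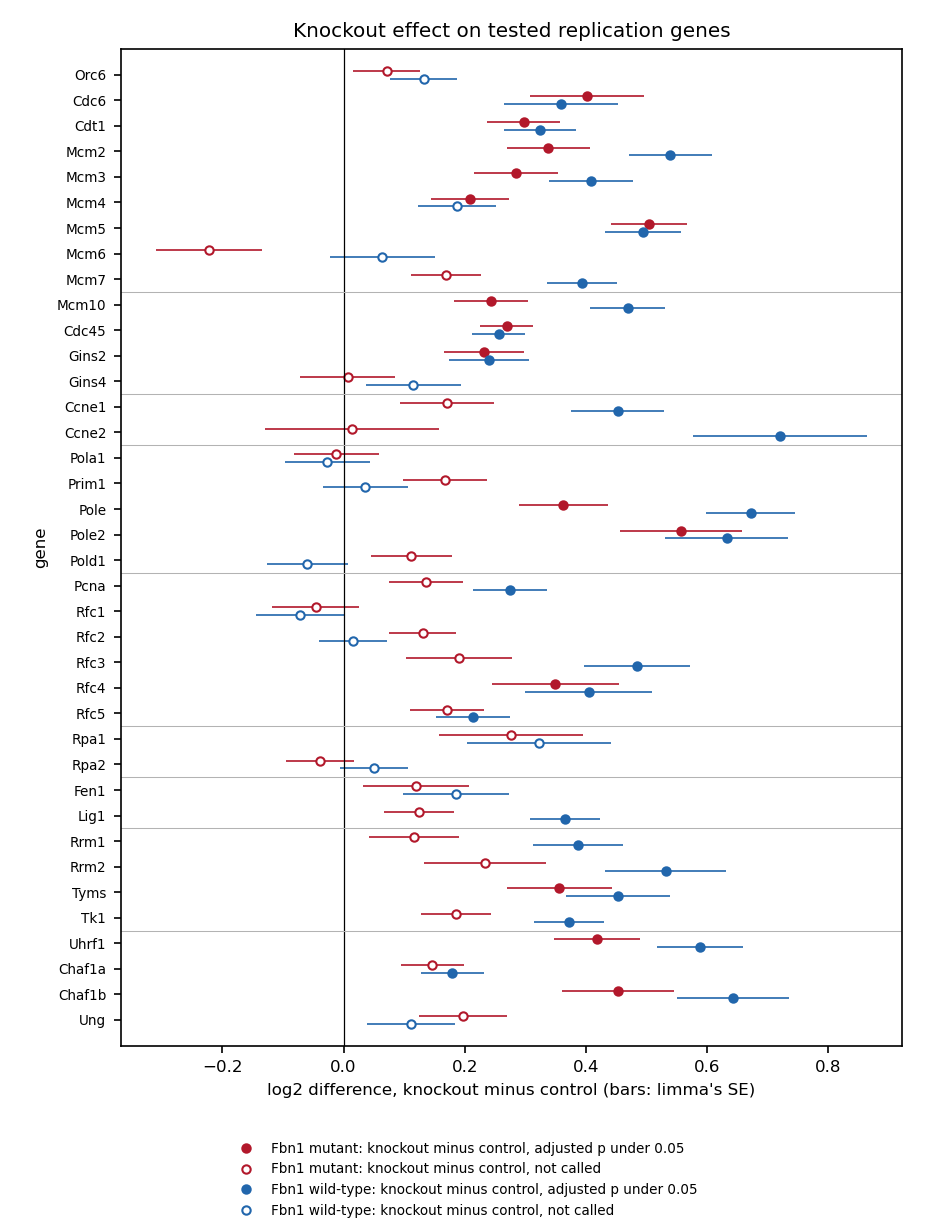
Points give the log2 difference, knockout minus control, of the 38 tested replication genes with limma's SE as bars, for Fbn1 mutant (red) and wild-type aortas (blue); filled points have an adjusted p under 0.05. All 40 filled points, 15 red and 25 blue, lie right of 0, and Ccne2 has the widest gap between colours.

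Whether the Fbn1 background changed the knockout difference was tested directly, as the mutant difference minus the wild-type difference. None of the 38 genes was called, where 1.47% of all genes tested were (0.409% higher and 1.06% lower). With array weights none was called either, where 3.09% of all genes tested were. In the main fit 10 of the 38 had an unadjusted limma p under 0.05. The median of this difference was -0.08 for the 38 genes and 0.04 for all genes, and 28 of the 38 (73.7%) had the smaller value in mutant aortas, beside 40.3% of all genes tested. Ccne2 had the largest, -0.71 ± 0.20, with a 95% interval of -1.15 to -0.27 and a limma adjusted p of 0.114. Pole came next at -0.31 ± 0.10, then Rrm2 at -0.30 ± 0.14, Rfc3 at -0.29 ± 0.12, Mcm6 at -0.29 ± 0.12 and Ccne1 at -0.28 ± 0.11. At the other end was Pold1 with 0.17 ± 0.10. Mcm5 and Cdc45 lay near 0 with 0.01 ± 0.09 and 0.01 ± 0.06, and their 95% intervals of -0.18 to 0.20 and -0.12 to 0.15 exclude a difference as large as that of Ccne2. Across the 38 genes the mutant and wild-type differences, which share no array, correlated with Pearson's r = 0.66 and Spearman's rho = 0.68, beside 0.62 and 0.55 across all genes tested. Genes are not independent replicates, so these are descriptions.

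**Figure D4:**
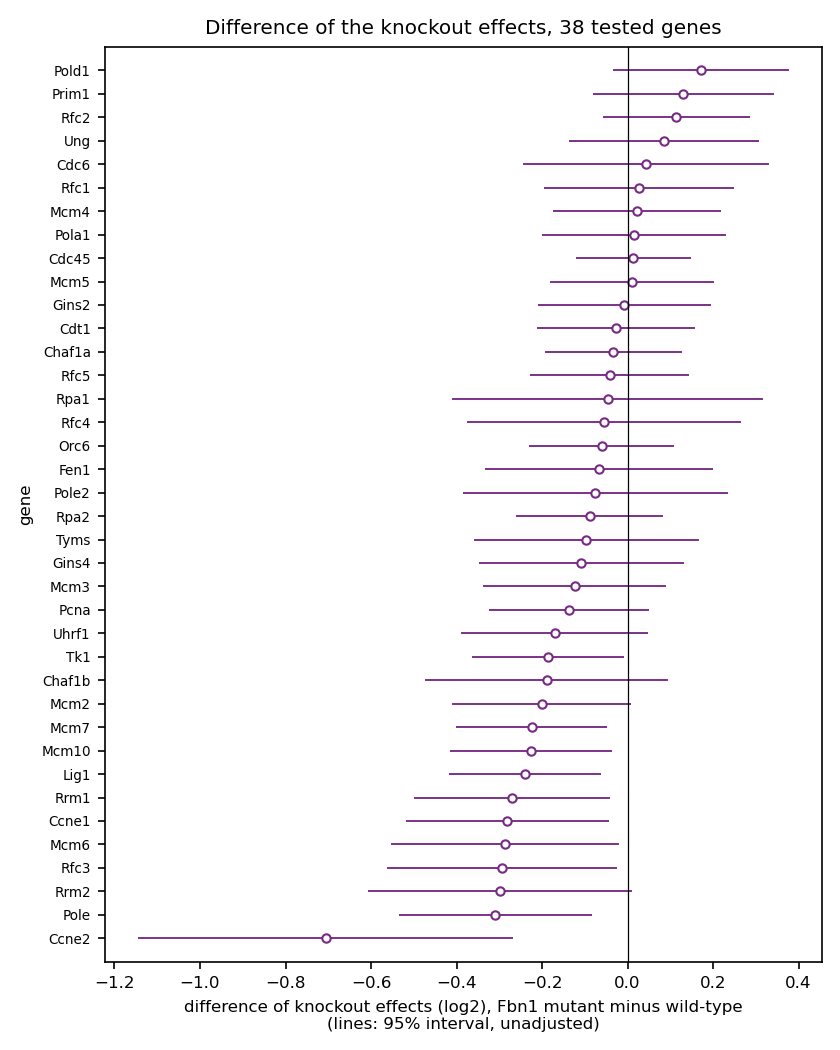
Points give, for each of the 38 tested replication genes (down, sorted), the knockout difference in Fbn1 mutant aortas minus that in wild-type aortas on the log2 scale, with unadjusted 95% intervals as lines. Of the genes, 28 lie left of 0 (smaller in mutant aortas), Ccne2 lies farthest from 0, and none passed the adjusted test.

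The Fbn1 mutation alone was compared in controls. The median of the 38 genes was 0.13 higher in mutant than in wild-type controls, beside -0.02 for all genes tested, and 8 were called higher and none lower, where 3.14% of all genes tested were called higher and 3.29% lower (6.43% in either direction). They were Ccne1 (0.35 ± 0.08), Cdt1 (0.22 ± 0.06), Chaf1b (0.38 ± 0.09), Lig1 (0.23 ± 0.06), Pole (0.31 ± 0.07), Rfc3 (0.33 ± 0.09), Tk1 (0.24 ± 0.06) and Uhrf1 (0.34 ± 0.07). Their limma adjusted p lay between 0.0178 for Uhrf1 and 0.0485 for Cdt1. Of the 38 genes, 19 had all mutant controls above all wild-type controls, where this held for 11.3% of all genes tested, and none had them all below, where this held for 16.7%. No call of the 8 held through every omission of 1 array. Omission of mutant control 1, 2 or 3 left 1, 3 and 5 calls, where 3.54%, 2.35% and 5.74% of all genes tested were called. That of wild-type control 1, 2 or 3 left 5, 2 and 2, where 4.74%, 3.2% and 3.67% were. Leaving out both arrays high in Ucp1 left 5, without Cdt1, Pole and Tk1, where 4.78% of all genes tested were called. This comparison shares its wild-type controls with the knockout comparison in wild-type aortas, so low wild-type controls enter both.

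Between the knockout groups none of the 38 genes was called, where 5.88% of all genes tested were (2.76% higher and 3.11% lower). For 6 of the 38 all mutant knockouts lay above all wild-type knockouts, where this held for 14.3% of all genes tested, and for 1, Pcna, all lay below, where this held for 11.8%. The median was 0.04 higher in mutant than in wild-type knockouts, and 4 genes had an unadjusted limma p under 0.05. Such p-values were common: Uhrf1, last of the 4 at an unadjusted limma p of 0.0382, ranked 2700 by p among all 15158 genes tested. Cdt1 came closest at 0.19 ± 0.06 (limma adjusted p = 0.0819) and was called with array weights, as were 10.9% of all genes tested. By p, Prim1, Gins2 and Uhrf1 followed at 0.19 ± 0.07, 0.16 ± 0.07 and 0.16 ± 0.07, and Ccne2 had the lowest value, -0.23 ± 0.14. With 3 arrays a group, the median standard error of a difference was 0.07, so that a p above the threshold does not show equal levels.

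Over the 40 genes, the group means took the order mutant knockout, wild-type knockout, mutant control, wild-type control for 18, and the same order with the knockout groups exchanged for 11. Mutant knockouts had the highest mean for 21 genes, wild-type knockouts for 15, mutant controls for 4 and wild-type controls for 0, and wild-type controls had the lowest mean for 31. Averaged over the 38 tested genes and centred per gene, the levels of mutant knockouts 1 to 3 were 0.20, 0.12 and 0.13, against -0.04, -0.08 and -0.05 for the mutant controls. They were 0.11, 0.10 and 0.13 in wild-type knockouts, against -0.17, -0.19 and -0.25 in wild-type controls. Every knockout array lay above every control array of either genotype. Mutant knockout 1, where Ucp1 stood apart, was the highest array for 15 of the 40 genes, and wild-type control 3 the lowest for 19. The median correlation between pairs of the 38 genes was 0.63 over the 12 arrays and 0.07 once group means were removed, so that their likeness lies mostly between groups and little within them. The genes that followed the others least were Rfc1, Mcm6, Pold1, Pola1, Rpa2 and Rfc2, with correlations of -0.28, -0.05, -0.04, -0.02, 0.21 and 0.33 with the mean of the rest.

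Other genes of the same pathway were taken as lists. Of all genes tested, 7.67% were called higher and 5.68% lower in mutant knockouts, and 9.08% and 9.51% in wild-type knockouts. These shares stand beside every knockout count below. Of 35 further replication genes tested (other subunits, checkpoint and histone-supply genes), 6 rose in mutant knockouts and 11 in wild-type knockouts, and none fell. The medians were 0.04 and 0.09, beside 0.03 and -0.01 for all genes tested, so the mutant median was close to that of all genes. Asf1b, a histone chaperone, led with 0.65 ± 0.10 in mutant (limma adjusted p = 0.00235) and 0.85 ± 0.10 in wild-type aortas (adjusted p = 0.000167), followed by Timeless, a fork protection gene, with 0.30 ± 0.06 and 0.39 ± 0.06, and Ticrr, a helicase activator, with 0.22 ± 0.05 and 0.28 ± 0.05. Of 30 genes of G1/S control, 5 rose and 1 fell in mutant knockouts, and 10 rose and 3 fell in wild-type knockouts. E2f1, an activator of replication genes, rose by 0.25 ± 0.06 in mutant (limma adjusted p = 0.0232) and 0.43 ± 0.06 in wild-type knockouts (adjusted p = 0.000629), and E2f8, a repressor of the family, by 0.53 ± 0.09 and 0.64 ± 0.09. The mutant call of E2f1 was lost under 7 of 22 other settings. Cdk2, the kinase partner of cyclins E and A, differed by 0.00 ± 0.07 and 0.07 ± 0.07 and was not called. Cdk6, a G1 kinase, fell in knockouts of both genotypes, with differences of -0.64 ± 0.08 in mutant (limma adjusted p = 0.000321) and -0.27 ± 0.08 in wild-type aortas (adjusted p = 0.0249). It was higher in mutant than in wild-type controls, by 0.58 ± 0.08 (limma adjusted p = 0.00136).

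Ccna2, which encodes the cyclin of S phase and G2, read 9.78, 9.51 and 9.01 in mutant knockouts, against 9.47, 9.09 and 8.89 in mutant controls, and 9.57, 9.48 and 9.80 in wild-type knockouts, against 7.76, 7.66 and 7.98 in wild-type controls. The wild-type controls lay far below all other arrays and the mutant groups overlapped, with differences of 0.28 ± 0.18 (limma adjusted p = 0.297) and 1.81 ± 0.18 (adjusted p = 4.3e-05), and a difference between genotypes of -1.53 ± 0.26 (adjusted p = 0.0118). The mitosis genes were counted as a list. Of 22 tested, 3 rose in mutant knockouts (median 0.22) and 22 in wild-type knockouts (median 1.00). Between controls, 15 were higher in mutant than in wild-type aortas (median 0.57), where 3.14% of all genes tested were called higher. The difference between genotypes was called for 8, all smaller in mutant aortas, where 1.06% of all genes tested were called lower. Mki67, a marker of cycling cells, read 9.44, 9.18 and 8.86 in mutant knockouts, against 9.39, 8.84 and 8.72 in mutant controls, and 9.20, 9.09 and 9.38 in wild-type knockouts, against 7.86, 7.93 and 7.75 in wild-type controls. Its knockout difference was 0.18 ± 0.17 in mutant and 1.38 ± 0.17 in wild-type aortas, and that between genotypes -1.20 ± 0.23 (limma adjusted p = 0.0269, but 0.0509 to 0.0753 on omission of mutant knockout 2 or 3, wild-type knockout 1 or 3, or wild-type control 1 or 3). Under the same test none of the replication genes was called, and whether the 2 lists differ from each other was not tested.

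**Figure D5:**
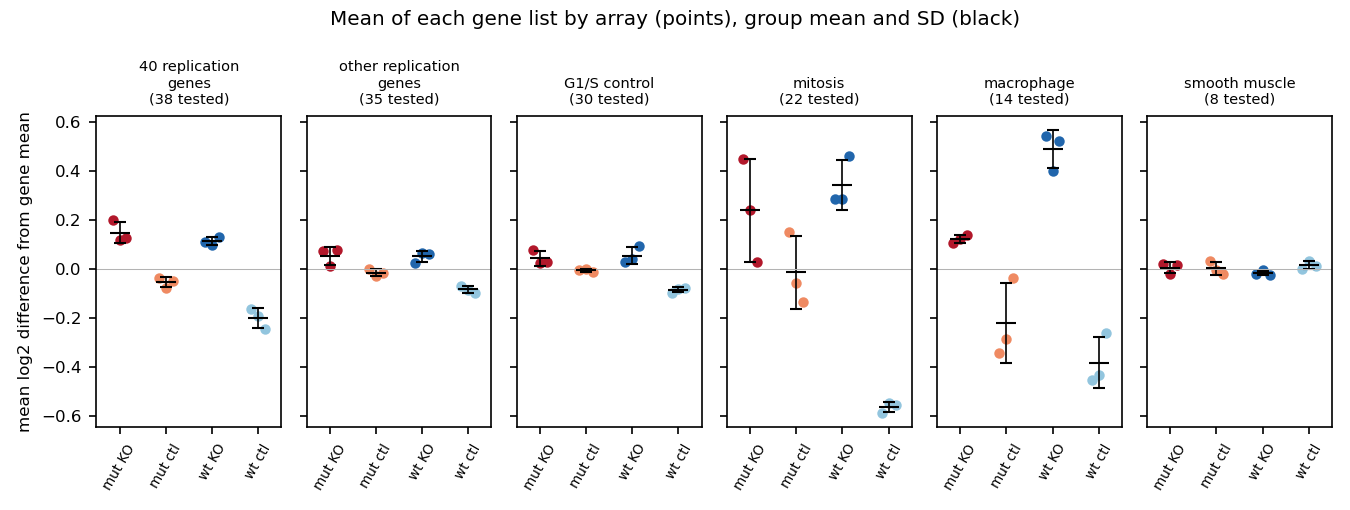
Each point is the mean over a gene list of log2 intensity minus the gene's mean over the 12 arrays, for 1 array, by group, with the group mean and SD in black. Replication genes are higher on knockout than on control arrays in both Fbn1 genotypes, mitosis genes are lowest on the Fbn1 wild-type controls, and macrophage markers are highest on the Fbn1 wild-type knockouts.

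Markers of other cells were counted in the same comparisons. Of 14 macrophage markers tested, 6 rose in mutant knockouts (median 0.34) and 14 in wild-type knockouts (median 0.96). Their mean centred level per array lay between 0.10 and 0.14 in mutant knockouts and between -0.34 and -0.04 in mutant controls, and between 0.40 and 0.54 in wild-type knockouts and between -0.45 and -0.26 in wild-type controls. Of 8 endothelial markers, 4 rose in mutant and 4 in wild-type knockouts, among them Vwf (0.51 ± 0.11 and 0.61 ± 0.11) and Nos3 (0.31 ± 0.09 and 0.54 ± 0.09). Of 6 cardiac muscle markers 2 rose in each genotype, and of 5 brown fat markers 1, Cidea, in each. Of 7 fibroblast markers, 1 rose and 1 fell in mutant knockouts (median -0.13) and 4 rose in wild-type knockouts (median 0.28). Of 8 smooth muscle markers, 1 rose and 1 fell in mutant knockouts and 1 rose and 2 fell in wild-type knockouts, with Actg2, a smooth muscle actin, the one that rose in both (0.30 ± 0.05 and 0.31 ± 0.05). Of 10 lymphocyte markers 4 were tested, with medians of -0.29 in mutant and 0.08 in wild-type aortas. Cd79b rose in mutant knockouts (0.15 ± 0.05), whereas Cd3e, Cd8a and Cd4 differed there by -0.36 ± 0.17, -0.41 ± 0.18 and -0.22 ± 0.10 and were not called, and none of the 4 was called in wild-type aortas. Mutant control 3 stood apart in the mean centred level of these 4 markers, at 0.47 against -0.22 to 0.05 on the other 11 arrays. Of the 2 red cell markers tested none was called in either genotype by limma. Macrophage markers were lower in mutant than in wild-type knockouts for 7 of 14 genes, where 3.11% of all genes tested were called lower. The part of these cells in the replication gene differences was not tested.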

How the data were processed

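Total RNA of 12 ascending aorta samples was hybridised to Affymetrix arrays, 1 colour, and the authors deposited 1 table of linear RMA intensity values, made with RMA in Partek 6.4 per the submitters' processing notes. RMA corrects background, quantile-normalises and summarises probes, which compresses small differences at low brightness. The genome build of the probes is not given in the sources used here. Samples were grouped by title; the descriptions of some knockouts name other receptor genes (Tgfbr3, Tgfbr4), while titles and status name Tgfbr2. The table held 0 columns of other samples.

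Of 35556 probe sets, 21789 have 1 gene symbol in GEO's platform annotation, 1621 several and 12146 none; 21698 matched a RefSeq gene by Entrez ID. A gene was represented by its brightest single-symbol probe set (19938 genes), values were taken to log2, and genes with a mean under the 25th percentile (log2 7.25, intensity 152) were left out, leaving 15158. limma 3.58.1 in R 4.3.3 fitted 4 group means over all 12 arrays, with empirical Bayes variances and two-sided tests of 5 contrasts, adjusted by Benjamini-Hochberg over all genes tested, threshold 0.05. The fit was tested on simulated data. The labels do not say that samples came from separate animals, so a p-value here reflects only how far these samples spread, which may be technical, and 3 arrays a group limit the precision.

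The 40 genes and 11 other gene lists were chosen with earlier results of these data known. All 40 could be named. Values on each array are printed for the 2 of smallest p per role in wild-type aortas and for genes called in another comparison. They are also printed for Mcm6, which was outside that rule and was called only with array weights. From other lists the 4 of smallest p per comparison could be named, plus Ccna2, Cdk2, E2f1 and Mki67, and also Cdkn1a, which has no single-symbol probe set, and Gmnn, which was under the filter; 1 further gene is not reported here. Promoters are RefSeq windows on GRCm38.p6. Alternatives covered the filter, scaling, probe set choice, variance model, array weights, samples in the fit, a replicate block, the 2 arrays high in Ucp1 and each array omitted in turn. Figures were drawn with matplotlib 3.10.9.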

Additional observations from a re-analysis of the deposited data

Results flagged for a closer look

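None of the tested replication genes had a knockout difference that passed the test of a difference between Fbn1 genotypes (limma), and 10 of 38 had an unadjusted p under 0.05. Such p-values were common: among all 15158 genes tested, rank 2215 by unadjusted limma p was held, at 0.0406, by Tk1, last of these 10 replication genes. Among the cell cycle genes followed beside them, Ccna2, the cyclin of S phase and G2, had a smaller knockout difference in mutant than in wild-type aortas, by -1.53 ± 0.26 on the log2 scale (limma interaction, adjusted p = 0.0118). Mki67, the marker of cycling cells, did so by -1.20 ± 0.23 (limma interaction, adjusted p = 0.0269), and its adjusted p passed 0.05 when any of 6 single arrays was omitted. No formal test for an outlying array was run, since groups of 3 are too small for it; mutant knockout 1 and mutant control 3, which stood apart in Ucp1, were omitted in an alternative.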

How the results depend on the processing

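Limits: 3 arrays a group, small fold changes and 1 probe set for most genes bound what these counts can show. Of 38 tested replication genes, 25 were called between knockouts and controls in wild-type aortas, 15 in mutant aortas, 8 between controls, 0 between knockouts and 0 for the difference of effects. Of all genes tested, 18.6%, 13.3%, 6.43%, 5.88% and 1.47% were called in these comparisons. Omission of each array in turn gave counts of 20 to 26, 9 to 16, 1 to 8, 0 to 1 (1 without wild-type control 1) and 0 to 0. The shares of all genes tested called in these omissions were 12.2% to 19.7%, 5.96% to 14.3%, 2.35% to 7.1%, 2.53% to 6.7% and 0.712% to 1.34%. Called in each of the 22 alternatives in which the gene itself was tested were 20 of the 25, 5 of the 15 and 0 of the 8. With the filter at the median brightness only 23 replication genes were tested. The counts were then 14, 7 and 4, where 24.5%, 15.8% and 9.2% of all genes tested were called. Array weights gave 23 in mutant aortas, 22 higher and Mcm6 lower, and 1 between knockouts (Cdt1). With these weights 24.4% and 10.9% of all genes tested were called in these comparisons, beside 13.3% and 5.88% in the main fit. The control comparison gave 5 after quantile normalization, 3 after median centring of the arrays and 2 with only the groups compared. In these settings 7.82%, 6.35% and 3.21% of all genes tested were called. Without mutant control 3 and mutant knockout 1 the mutant count was 6 and the control count 5, where 7.24% and 4.78% of all genes tested were called. The cause of these changes was not tested. No called difference reversed. Title numbers showed no strong pairing of the samples, although correlations over so few arrays cannot exclude a weak one. Deviations of same-numbered arrays correlated at -0.22 to 0.24 over 18 pairs of arrays, against -0.17 to 0.21 over 36 pairs with different numbers. With the number as a replicate block the counts were 25, 13, 8, 0 and 0, where 17.2%, 12%, 5.74%, 5.55% and 1.33% of all genes tested were called. Scaling moved the median difference of all genes by less than 0.1.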
